A study of Rattus norvegicus with 4 samples.

Results

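The genes described here are the ubiquitin-conjugating enzymes of the rat, the E2 family, together with LOC103694902, a gene row described in the table as ubiquitin-conjugating enzyme E2 B. Members were the protein-coding rows whose symbol begins with Ube2 and a letter, without Ube2c and Ube2l6, which gave 26 genes, plus LOC103694902, so 27 of 17768 rows. The Ube2 genes were chosen by name, and LOC103694902 was selected on its normalized reads and fold change between the groups compared here, so its values are given as a description and are not tested. RNA was sequenced from NRK-52E, a long-established rat kidney cell line that the labels describe as proximal tubular epithelium. The 2 libraries titled lv_Mettl3 and the 2 titled lv_nc carry the same protocol text, which describes a stable line made with a lentivirus (pLVX-IRES-Puro) that delivers a murine Mettl3 cDNA, selected with 0.5 mg/ml and kept in 0.25 mg/ml puromycin with 10% serum. Mettl3 is the methyltransferase that places N6-methyladenosine on RNA. All 4 are labelled untreated. The labels do not say what the lv_nc vector carries, whether a line is 1 clone, or whether replicates came from separate cultures, so p-values here reflect spread that may be technical, between these libraries alone.

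Ubiquitin is attached to proteins in a relay. An E1 enzyme activates it, an E2 carries it on a cysteine, and an E3 ligase brings the loaded E2 to the substrate. The E2 often decides the kind of chain: chains through lysine 48 mark proteins for the proteasome, chains through lysine 63 serve signalling and DNA repair, and some E2s carry modifiers such as NEDD8 in place of ubiquitin. Ube2a and Ube2b are the mammalian counterparts of yeast RAD6, which ubiquitinates histone H2B and the replication clamp PCNA.

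Recovered gene reads ranged from 15068898 to 16622255 per library. Replicates lay farther apart in lv_nc: over the 10051 tested genes with a mean of at least 100 normalized reads, their median absolute log2 difference was 0.21, against 0.10 for the lv_Mettl3 pair. Mettl3 itself had 719 and 767 normalized reads in lv_nc against 757 and 699.6 in lv_Mettl3 (log2 fold change -0.03, SE 0.11; limma adjusted p = 0.931), with overlapping groups. The targeted gene was thus not measurably higher in the libraries titled lv_Mettl3. Whether transcripts of a murine cDNA are counted in the rat row was not tested, and lv_nc and lv_Mettl3 below are the titles of the libraries, not a measured Mettl3 level. The epithelial keratin gene Krt8 was abundant (28296 to 33065), but of 10 proximal tubule markers only 5 had a mean of at least 10, and Slc34a1, Lrp2, Slc22a6, Aqp1 and Slc27a2 were under 10 in every library or had no row. Of 7 epithelial markers Cdh1, Epcam, Krt18, Krt19 and Cldn1 were likewise under 10 or without a row. Of 8 fibroblast and smooth muscle markers 4 had a mean of at least 10 and Pdgfra, Pdgfrb, Dcn and Lum were under 10 or without a row. The summed level of that list was 9647 and 15905 in lv_nc against 2989.9 and 2401 in lv_Mettl3, without overlap. That of the proximal tubule list was 2539 and 2662 in lv_nc against 3412 and 3919.7 in lv_Mettl3, the opposite direction, also without overlap. Most of that sum was 1 gene, Ggt1, with 2412 and 2530 in lv_nc against 3294 and 3757 in lv_Mettl3. Of the others with a mean of at least 10, Slc3a1 and Slc5a2 had log2 fold changes of 0.33 and 0.28. Those of Cubn and Anpep were -0.59 and -0.14, so the sum describes Ggt1 more than the list. The part of either list in the results below was not tested. In such bulk libraries fewer cells of a type and less RNA per cell cannot be told apart.

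LOC103694902 was the member that differed most. Its normalized reads were 31.3 and 36.0 in lv_nc, against 908 and 729 in lv_Mettl3. Both lv_Mettl3 libraries were far above both lv_nc libraries. The lv_Mettl3 replicates differed by 0.32 in log2, more than those of any of the Ube2 genes with a mean of at least 100 (at most 0.25, Ube2t), and the lv_nc replicates by 0.20. These values come from 32 and 39 recovered reads in lv_nc against 856 and 705 in lv_Mettl3. The group means were 33.6 ± 3.35 and 818 ± 127 (SD, n = 2 each), a ratio of 24.3. Over the 4 pairs of an lv_Mettl3 and an lv_nc library that ratio ran from 20.2 to 29.03. On the log2(value + 1) scale the difference was 4.56, the highest of the 10051 genes with a mean of at least 100. It was 4.40 to 4.72 when any 1 library was left out. LOC103694902 was selected on this difference, so its rank and range are a description only. In the authors' deposited table the log2 fold change of LOC103694902 was 4.603, and DESeq2 on the recovered reads also gave 4.603. Both come from the same 4 libraries, so neither is separate support. LOC103694902 was the 1 member in the authors' short table, which holds 167 of the 17768 rows. The smallest absolute log2 fold change in that short table was 1.003.

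**Figure D1:**
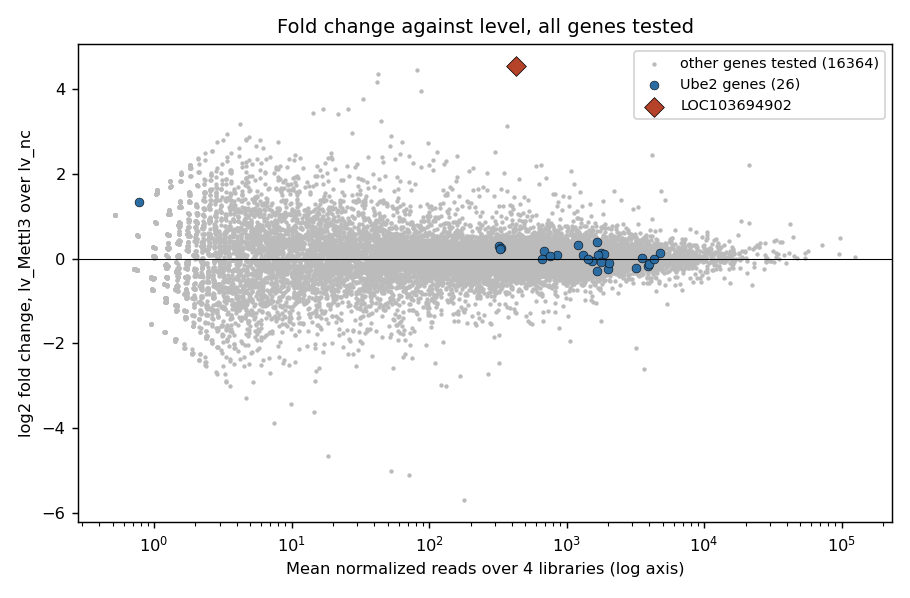
Each point is a gene tested: the horizontal axis is its mean normalized reads over 4 libraries (log axis) and the vertical axis its limma log2 fold change, lv_Mettl3 over lv_nc. The 26 Ube2 genes (blue) lie near 0, except Ube2d4 at the far left with a mean under 1, while LOC103694902 (red diamond) stands at 4.56.

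The size of this difference can be placed against Ube2a, the closest paralog of Ube2b, on levels per gene length. This takes the reads of each row as those of 1 gene, which is uncertain for LOC103694902, as set out below. In RPKM, reads scaled by gene length and library depth, LOC103694902 stood at 1.15 ± 0.136 in lv_nc against 27.2 ± 4.24 in lv_Mettl3. Ube2a had 27.2 ± 2.10 and 27.5 ± 1.19 (SD, n = 2 each). LOC103694902 thus ranked 26 of 27 members per length in lv_nc against 22 in lv_Mettl3, where it reached the level of Ube2a. Of the reads of these 2 rows together, LOC103694902 took 4.20% (95% Wilson interval 2.99 to 5.87) and 4.44% (3.27 to 6.01) in the lv_nc libraries. It took 53.3% (50.8 to 55.7) and 49.3% (46.7 to 51.9) in the lv_Mettl3 libraries. The intervals cover counting error only. Ube2a differed little between the groups and LOC103694902 was selected on its difference. The shares therefore restate that difference and are no test of it.

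Ube2a (ENSRNOG00000039985, chromosome X, 123486989 to 123497726 on a genome build that no source used here names) showed no such gap. It had 713 and 775 normalized reads in lv_nc against 796 and 750.3 in lv_Mettl3, and the groups overlapped. The log2 fold change was 0.06 (SE 0.11, 95% interval -0.22 to 0.34, limma adjusted p = 0.864). That interval spans folds of 0.856 to 1.26, so a change of Ube2a of the size seen in LOC103694902 lies far outside it.

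LOC103694902 (ENSRNOG00000059348) lies on AABR07024291.1, a scaffold that belongs to no assembled chromosome, at 2544 to 17223 on the minus strand. The scaffold carries 3 rows. The next is LOC108348323, described as cyclin-dependent kinase-like 3, and the last is LOC103694903, described as the catalytic subunit alpha of protein phosphatase 2A. Both are on the plus strand. In RefSeq's GRCr8 assembly, used here for gene order and strand only, the protein-coding neighbours of Ube2b on chromosome 10 run Cdkn2aipnl, Ube2b, Cdkl3, Ppp2ca, with Ube2b on the minus strand and Cdkl3 and Ppp2ca on the plus strand. The scaffold rows therefore carry the descriptions of 3 consecutive genes of chromosome 10 in the same order and orientation. The authors' file also has rows for Cdkl3 and Ppp2ca on chromosome 10, and LOC103694903 and Ppp2ca have the same deposited length of 930 bases and spans of 18793 and 18794 bases. That file places Ppp2ca on the minus strand. A row named Ube2b was not analysed here, and of the rows used LOC103694902 was the 1 described as E2 B. Reads of near-identical copies can be split between rows, so the values of the 3 scaffold rows as levels of single genes are uncertain, and the part of this in the difference was not tested.

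The other rows of the scaffold had no gap between the groups. LOC103694903 had 85.0 and 81.2 in lv_nc against 75.3 and 94.04 in lv_Mettl3, with overlapping groups (log2 fold change 0.02, SE 0.25, limma adjusted p = 0.983). LOC108348323 had at most 1.03 normalized reads in any library and was not tested. On chromosome 10, Ppp2ca had 700.5 and 628 in lv_nc against 1068 and 677 in lv_Mettl3, where 1 lv_Mettl3 library was high and the other lay between the lv_nc libraries (limma adjusted p = 0.590). Cdkl3 had 2.93 to 14.8 normalized reads per library and its groups overlapped. Cdkn2aipnl, on the other side of Ube2b in GRCr8, had 1858 and 1560.1 in lv_nc against 1711 and 1718 in lv_Mettl3 (limma adjusted p = 0.981).

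**Figure D2:**
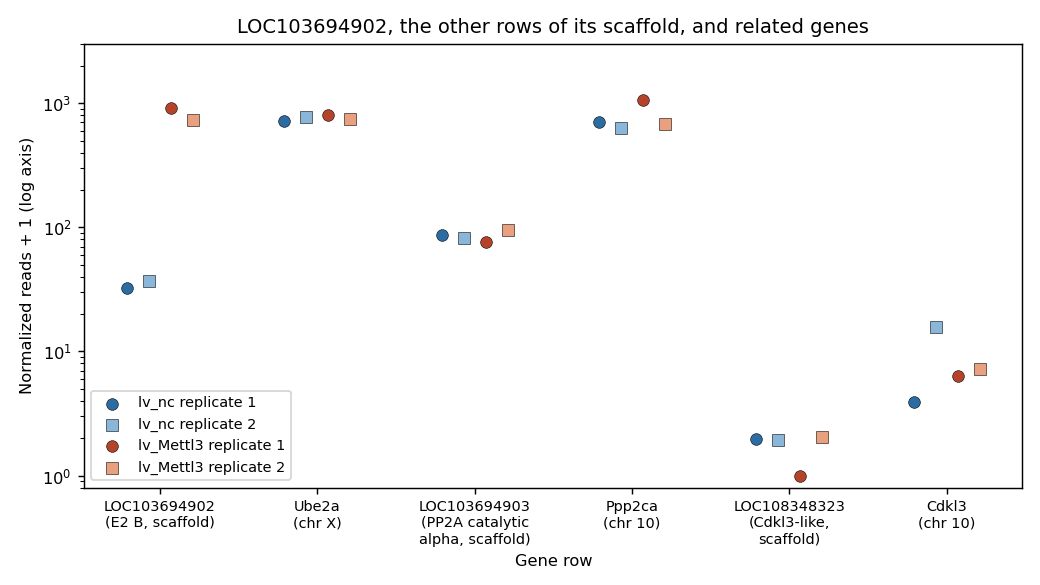
Normalized reads plus 1 (vertical, log axis) in each of the 4 libraries for the 3 rows of the scaffold, the chromosome 10 genes Ppp2ca and Cdkl3, and Ube2a; circles are replicate 1 and squares replicate 2. The lv_Mettl3 libraries stand apart from lv_nc in LOC103694902, at 908 and 729 against 31.3 and 36.0, and no other gene plotted shows a gap of that size.

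The 26 Ube2 genes showed no change that passed the test. Limma called 0 of 26 with adjustment over all 16391 genes tested, against 0.0183% of all genes, or 3. With so few calls in the whole table this count says little about the family. DESeq2 on the recovered reads called 0 of the 25 Ube2 genes it gave an adjusted p, against 2.52% of all genes (1.45% higher and 1.07% lower), and edgeR called 0 of 26, against 0.0305%. At an unadjusted p under 0.05 limma had 1 Ube2 gene, Ube2g1, where 10.5% of all genes tested had such a p. DESeq2 had 1, Ube2n, and edgeR had 0. For these tests the share of all genes was not computed, so their counts are not read as a trait of the family. The smallest adjusted p over the 26 was 0.471 by limma, 0.474 by DESeq2 and 0.493 by edgeR.

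The intervals were narrow, but they rest on 2 libraries per group whose spread may be technical. They bound differences between these libraries alone. All 26 passed the low-value filter, but Ube2d4 did so only through the lv_Mettl3 libraries: it had 0 reads in both lv_nc libraries and 1 and 2 reads in lv_Mettl3, within counting error of 0, so no fold is given. The other 25 had means of 325 (Ube2d1) to 4798 (Ube2d3). Each had a log2 fold change within 0.5 either way, from -0.28 (Ube2r2) to 0.38 (Ube2n), where 90.8% of the 10051 genes with a mean of at least 100 did. For all 25 the 95% interval lay within 2-fold either way, with outer bounds of -0.65 (Ube2h) and 0.81 (Ube2n). Their median was 0.06, beside 0.002 for the 10051 genes, and their median absolute log2 fold change was 0.12, beside 0.15.

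Both lv_Mettl3 libraries were above both lv_nc libraries for 11 of these 25 genes, or 44%, where 23.4% of the genes with a mean of at least 100 and 23.5% of all tested genes were. Both were below for 3, or 12%, where 24.2% and 21.5% were. Of the 25, 15 had a log2 fold change above 0, or 60%, where 50.5% of the 10051 genes did. That number was 17 with TMM scaling (52.1% of the 10051), 13 with library size scaling (43.2%) and 14 to 18 without 1 library. Single estimates depended on the libraries used: in 21 of the 25 genes leaving out some 1 library turned the sign or moved the estimate by over 1.5 times, the exceptions being Ube2g1, Ube2g2, Ube2m and Ube2q2. The sign turned in 8, among them Ube2a, Ube2d2, Ube2h, Ube2k, Ube2l3, Ube2q1 and Ube2t. In 18 of the 25 genes lv_nc replicate 2 was below lv_nc replicate 1. This was not counted over all genes, so it is not read as a trait of the family. The summed normalized reads of the 26 genes were 48668 and 47027 in lv_nc against 47111 and 47927 in lv_Mettl3, with means of 47847 ± 1160.4 and 47519 ± 577 and a ratio of 0.993. Their share of gene reads was 0.309% and 0.306% in lv_nc against 0.295% and 0.2995% in lv_Mettl3.

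**Figure D3:**
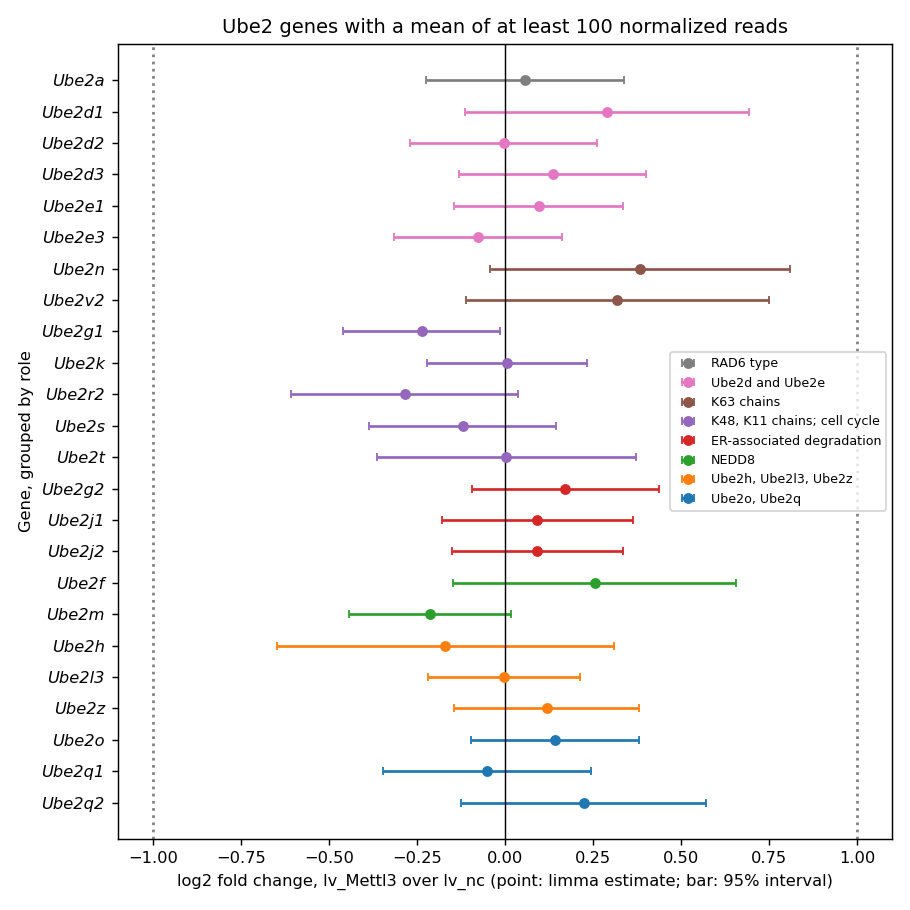
Points are limma log2 fold changes, lv_Mettl3 over lv_nc, for 24 Ube2 genes with a mean of at least 100 normalized reads, coloured by role; bars are 95% intervals and dotted lines mark 2-fold. All bars lie between -0.65 and 0.81, and that of Ube2g1 is the only one of the 24 that does not reach 0.

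The lysine 63 pair had the highest positive estimates. Ube2n (Ubc13) is the catalytic E2 for lysine 63 chains, and Ube2v2 (Mms2) is an inactive E2 variant that binds Ube2n and orients the acceptor ubiquitin. Ube2n had 1653 and 1233 normalized reads in lv_nc against 1760 and 1969.7 in lv_Mettl3. The groups did not overlap, and lv_nc replicate 2 was the low library. The log2 fold change was 0.38 (SE 0.17, limma adjusted p = 0.502), and it was 0.17 without lv_nc replicate 2 and 0.59 without lv_nc replicate 1. Ube2v2 had 1243 and 909 in lv_nc against 1335 and 1318 in lv_Mettl3, with the same library low. Its log2 fold change was 0.32 (SE 0.17, limma adjusted p = 0.538), and 0.09 without lv_nc replicate 2 and 0.54 without lv_nc replicate 1. RefSeq names 9 pseudogenes for Ube2n, the most of any member, so reads of Ube2n may be shared with copies. Of 12 ligases that work with this pair limma and DESeq2 called 0, against 0.0183% and 2.52% of all genes. At such shares a count of 0 in this or the later lists says little about them. The median log2 fold change was -0.04. The most abundant per length were Trim25, a ligase of antiviral signalling (1696 ± 100.2 and 2167 ± 107, limma adjusted p = 0.433), and the chaperone-linked ligase Stub1 (836 ± 6.66 and 811 ± 133).

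The 5 E2s grouped here under lysine 48 chains, lysine 11 chains, the cell cycle or DNA repair had estimates near or below 0. The group does not hold every E2 that builds such chains. Ube2g1, which extends lysine 48 chains, had 2209.9 and 2124 in lv_nc against 1864 and 1814 in lv_Mettl3, with close replicates and no overlap. Its log2 fold change was -0.24 (SE 0.09, 95% interval -0.46 to -0.01, limma adjusted p = 0.471). Ube2r2, a partner of cullin-RING ligases, had 1650.1 and 2009.7 in lv_nc against 1459.95 and 1530.5 in lv_Mettl3. The groups did not overlap, with lv_nc replicate 2 the highest library. Its log2 fold change was -0.28 (SE 0.13, limma adjusted p = 0.502), and -0.14 without lv_nc replicate 2 and -0.43 without lv_nc replicate 1. Ube2s, which extends lysine 11 chains on substrates of the anaphase-promoting complex, had 4412 and 3862 in lv_nc against 3697 and 3900.1 in lv_Mettl3, and the groups overlapped. Ube2k and Ube2t, the latter the E2 of the Fanconi anaemia pathway, had log2 fold changes of 0.01 and 0.004. Of 16 subunits and activators of the anaphase-promoting complex limma and DESeq2 called 0, against 0.0183% and 2.52% of all genes. The median was -0.06. Its abundant subunit gene Anapc5 had 7382 and 7151 in lv_nc against 7139 and 7115 in lv_Mettl3, and the activator gene Cdc20 had 5521 and 4794 in lv_nc against 4278 and 4461 in lv_Mettl3.

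Ube2d and Ube2e enzymes work with a wide range of ligases. Ube2d3, the highest member by normalized reads, had 4907 and 4249 in lv_nc against 5051 and 4984 in lv_Mettl3, so the groups were separated by a small gap. Ube2d2 had 1533 and 1357 in lv_nc against 1447 and 1429 in lv_Mettl3, with both lv_Mettl3 libraries between those of lv_nc. Ube2d1 had 311 and 273 in lv_nc against 383 and 332 in lv_Mettl3. Its groups did not overlap, and the log2 fold change was 0.29 (SE 0.16, limma adjusted p = 0.543), and 0.19 without lv_Mettl3 replicate 1. Ube2e1 and Ube2e3 had log2 fold changes of 0.10 and -0.08.

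Ube2m (Ubc12) and Ube2f carry a ubiquitin-like modifier in place of ubiquitin: they are the E2s of NEDD8, which activates cullin ligases. Ube2m had 3309 and 3584 in lv_nc against 2927 and 3018 in lv_Mettl3, the log2 fold change being -0.21 (SE 0.09; limma adjusted p = 0.497) without overlap. Ube2f had 323 and 279.7 in lv_nc against 336 and 383 in lv_Mettl3, the log2 fold change being 0.25 (SE 0.16; limma adjusted p = 0.575), also without overlap. Without lv_nc replicate 2 it was 0.15 for Ube2f, and without lv_Mettl3 replicate 2 it was 0.16. The estimates for these 2 genes thus had opposite signs, and the difference between them was not tested. Of 14 rows of cullins and their NEDD8 ligase partners limma and DESeq2 called 0, against 0.0183% and 2.52% of all genes. The median was -0.04. The ring subunit gene Rbx1 had 1248 and 1279 in lv_nc against 1107 and 1148 in lv_Mettl3, and Dcun1d5 had 1335 and 1042 in lv_nc against 1274 and 1332 in lv_Mettl3. Of 11 SUMO ligases and proteases both tests called 0, against the same shares of all genes, with a median of -0.17, the lowest of the 10 lists. Senp3 (2069 and 1805 in lv_nc, 1946 and 1936 in lv_Mettl3) and Pias2 (1114 and 1056 in lv_nc, 1132 and 1038 in lv_Mettl3) were the most abundant of these per length.

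The E2s of endoplasmic reticulum-associated degradation, which clears misfolded proteins from that organelle, all had small positive estimates. Ube2j2 and Ube2j1 are anchored in its membrane. Ube2j2 had 1704 and 1555 in lv_nc against 1735 in each lv_Mettl3 library, and Ube2j1 had 862 and 791 in lv_nc against 900.1 and 861 in lv_Mettl3. Both had a log2 fold change of 0.09, which without lv_nc replicate 2 was 0.026 for Ube2j2 and 0.031 for Ube2j1 and without lv_nc replicate 1 was 0.16 and 0.15. Ube2g2, a soluble E2 of the same pathway, was at 0.17, and no interval of the 3 genes left 0. Of 10 ligases and cofactors of that pathway limma and DESeq2 called 0, against 0.0183% and 2.52% of all genes. The median was 0.04. Aup1, which recruits Ube2g2, had the highest estimate of these 10, from 1805 ± 312 to 2585 ± 172 (log2 fold change 0.53, SE 0.15, limma adjusted p = 0.433).

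Ube2l3, which passes ubiquitin to HECT and RBR ligases, was among the most even members, with 4393 and 4229.9 in lv_nc against 4208 and 4398 in lv_Mettl3. Its log2 fold change was -0.003, with a 95% interval of -0.22 to 0.21. Of 9 RBR ligases limma and DESeq2 called 0, against 0.0183% and 2.52% of all genes, with a median of 0.05. The most abundant per length were Rbck1, a subunit of the linear chain complex (2111 and 2422 in lv_nc, 1979 and 2039 in lv_Mettl3), and Rnf19b (1822 and 2221 in lv_nc, 1973 and 2187 in lv_Mettl3). Ube2h had 3423 and 4949.97 in lv_nc against 3571 and 3748 in lv_Mettl3. Its lv_nc replicates differed by 0.53 in log2, the most of the 25, and its log2 fold change, -0.17 with an SE of 0.19 (limma adjusted p = 0.742), turned to 0.10 without lv_nc replicate 2 and was -0.44 without lv_nc replicate 1. Ube2z, which is loaded by the E1 Uba6, was at 0.12. The large hybrid Ube2o, which acts as E2 and E3 in 1 protein, had 1767 and 1641 in lv_nc against 1846 and 1914 in lv_Mettl3. Ube2q1 had 1693 and 1436 in lv_nc against 1478 and 1534 in lv_Mettl3, and Ube2q2 had a log2 fold change of 0.22.

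**Figure D4:**
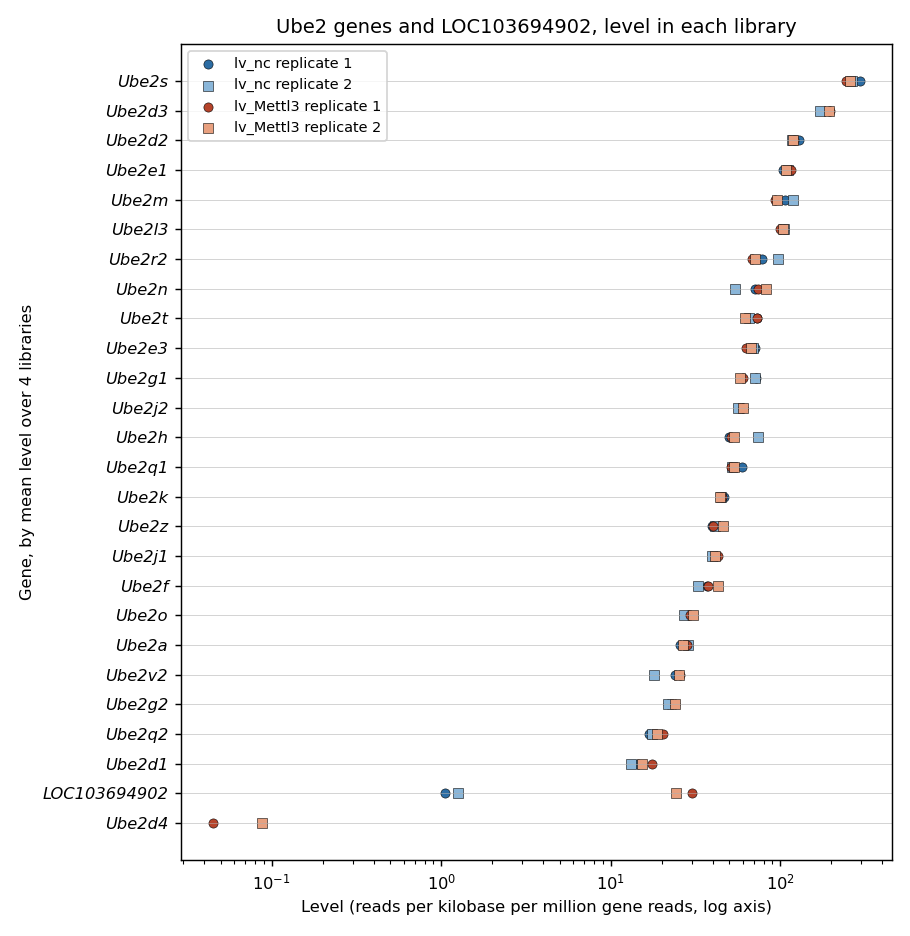
Level of 26 members in each library, in RPKM from the deposited gene lengths (horizontal, log axis), ordered by the mean over libraries; circles are replicate 1 and squares replicate 2, and a library at 0 is not drawn (both lv_nc libraries of Ube2d4). Ube2s is the highest gene drawn, and LOC103694902 is the member whose groups stand wide apart, at 1.15 and 27.2.

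Genes that act with the E2s were read from lists that were chosen with earlier results of these data known. Over 10 lists of other ubiquitin-system genes, 116 rows were tested and limma called 0, against 0.0183% of all genes. DESeq2 called 1, higher, against 1.45% of all genes. The 1 row called by DESeq2 and not by limma was Isg15, the interferon-induced ubiquitin-like modifier, with 1603 and 2175 in lv_nc against 4314 and 4109.9 in lv_Mettl3 (DESeq2 log2 fold change 1.16, adjusted p = 2.43e-08; limma adjusted p = 0.274). Of 9 E1 enzymes limma and DESeq2 called 0, against 0.0183% and 2.52% of all genes, with a median of 0.04. Uba1, the main ubiquitin-activating enzyme, had 7884 and 8047 in lv_nc against 7564 and 7817 in lv_Mettl3, and Uba2, of the SUMO E1, had 3249 and 2179 in lv_nc against 2836 and 3237 in lv_Mettl3. The 13 rows of ubiquitin and related modifiers had a median of 0.02.

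Partners of Ube2a and Ube2b form another list, with ligases and cofactors such as Rad18, which directs these E2s to PCNA, Rnf20 and Rnf40, which direct them to histone H2B, and the N-degron ligases Ubr1 and Ubr2. Of 12 tested limma and DESeq2 called 0, against 0.0183% and 2.52% of all genes, and the median log2 fold change was 0.08. Pcna had 4302 and 3833 in lv_nc against 4345 and 4286 in lv_Mettl3. Rad18, named after its values were seen, had the highest estimate of the list, at 0.35 (SE 0.18, limma adjusted p = 0.522).

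Of 10 E2 and E2-like genes outside the naming rule limma and DESeq2 called 0, against 0.0183% and 2.52% of all genes. The median was 0.13. Tsg101, an inactive E2 variant of endosomal sorting, had 2111 and 2131 in lv_nc against 2034 and 2039.96 in lv_Mettl3. Ufc1, the E2 of the modifier UFM1, had 1149 and 1109.6 in lv_nc against 1092 and 1024 in lv_Mettl3.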

How the data were processed

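RNA-seq of 4 NRK-52E libraries was analysed, 2 titled lv_nc and 2 titled lv_Mettl3, grouped and numbered by their titles. The submitters' processing notes name CASAVA 1.4 and HISAT2; no source used here gives the counter, build, annotation or strandedness. The deposited library columns hold a signal: gene read counts that the authors divided by 1 size factor per library. Within 0.001 reads, 100% of values were whole multiples of each library's smallest positive value, and whole reads were recovered from these steps. Deposited beside them are the authors' log2 fold changes and p-values, whose tool the file headers do not name. Gene lengths are as deposited.

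The main test was limma 3.58.1 with a mean-variance trend, fitted to log2(value + 1). It covered the 16391 genes that reached 1 in 2 or more libraries, and p-values were adjusted by Benjamini-Hochberg (threshold 0.05). DESeq2 1.42.0 and edgeR 4.0.16 on the recovered reads were alternatives. Scripts were tested on simulated data. Python 3.11.15, R 4.3.3 and, for plots, matplotlib 3.10.9 were used. Members, roles and lists were chosen with earlier results of these data known. Values per library were printed for LOC103694902, Ube2a, the 4 largest positive and 4 largest negative estimates among Ube2 genes averaging 10 or more, the 2 highest per length in each role, and called or the 2 most abundant genes of each other list. By symbol 25 of 27 members matched RefSeq (GRCr8), which was used for names, order and strand. Ube2d4 is listed there as an older name, and LOC103694902 matched neither by symbol nor by older name. Some genes that this rule names are not reported here, 1 member among them, which is also not drawn in the plots of single members.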

Additional observations from a re-analysis of the deposited data

How the results depend on the processing

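In all 14 alternatives run 0 Ube2 genes were called. The smallest adjusted p of any of them was 0.0895, for Ube2v2 without lv_nc replicate 1, a fit with 3 libraries in which the lone lv_nc library is assumed to vary like the others. The 25 Ube2 genes that averaged 100 or more had a median log2 fold change of 0.056, and 0.029 to 0.092 without 1 library. With Ube2d4, which passed the filter only through lv_Mettl3, it was 0.074, and 0.031 to 0.096 without 1 library. The log2 fold change of LOC103694902 was 4.40 to 4.717 without 1 library, which describes a gene selected on that value. Without 1 library the log2 fold change of Ube2a was -0.003021 to 0.1158 and that of Ube2h -0.4361 to 0.0958. Ube2a was below 0 without lv_nc replicate 1 and Ube2h above 0 without lv_nc replicate 2; both signs differ from the values with all libraries, and the cause was not tested. The signs of Ube2q1 (-0.1693 to 0.06773), Ube2d2 (-0.09194 to 0.08373), Ube2l3 (-0.03467 to 0.02907), Ube2k (-0.04748 to 0.05985) and Ube2t (-0.1204 to 0.1284) also turned without some 1 library. The counts of genes above 0, the values over the 25 genes and those of each of them without 1 library were added after the data were seen. With the replicate number as a block 0 Ube2 genes were called. In this balanced design a block cannot move a fold change, so the value of LOC103694902 is 4.558 with it by construction. Same-numbered libraries deviated together with a correlation of 0.325 over 10100 genes, but with 2 pairs the libraries share only a number, and no pairing was assumed. Summing LOC103694902 with Ube2b, and the share including Ube2b, were not run, since a row of that name was not analysed here. Ube2d4, at 0 to 2 reads, is below what this depth resolves, and 12 members have pseudogenes named for them in RefSeq, 32 in all, whose reads could be shared.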

Other observations

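Several further E2 rows carry no Ube2 symbol and were picked by their description after their values were seen. LOC679539, described as similar to E2 variant 1, the partner of Ube2n in NF-kB signalling, had 1572 and 1629 normalized reads in lv_nc against 1534 and 1627 in lv_Mettl3 (log2 fold change -0.02, SE 0.09). The Ube2e2 row AABR07017046.1 had 179 and 200.3 in lv_nc against 129 and 179.8 in lv_Mettl3. An unnamed transcript described as the N-terminal ubiquitin enzyme Ube2w had 503 and 506 in lv_nc against 394 and 440.2 in lv_Mettl3, with no overlap (log2 fold change -0.28, SE 0.13, limma adjusted p = 0.502).

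Rps27a, which encodes ubiquitin fused to a ribosomal protein, has 2 rows in the table, and these were named after their values were seen. The row on chromosome 14 had 7710 and 5069 in lv_nc against 7408 and 7310 in lv_Mettl3, and the row on chromosome 5 had 3769 and 5765 in lv_nc against 3347 and 3436 in lv_Mettl3. In lv_nc replicate 2 the first row was low and the second high. Whether the 2 rows share reads was not tested.

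Besides LOC103694902, 73 tested rows lie outside the assembled chromosomes, on 55 scaffolds. Limma called 0 of them, against 0.0183% of all genes, and edgeR called 0, against 0.0305%. At an unadjusted limma p under 0.05 there were 5, where 10.5% of all genes tested had such a p. DESeq2 called 1 of the 31 it gave an adjusted p, against 2.52% of all genes. It was an unnamed transcript, singled out after its values were seen and described as an envelope glycoprotein of the mouse intracisternal A-particle. It had 80.1 and 88.6 in lv_nc against 186 and 199 in lv_Mettl3 (DESeq2 adjusted p = 0.022, limma adjusted p = 0.326). The median log2 fold change of the 73 rows was 0.17.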
